A study of Homo sapiens with 6 samples.

Results

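AHCYL1 and the genes of the methionine cycle were followed in human melanoma cells in which AHCYL1 had been knocked down. The set holds 10 genes, picked by name for their place in the pathway: AHCYL1, its paralogs AHCYL2 and AHCY, and the enzymes that make, use or recycle S-adenosylmethionine, homocysteine and adenosine (MAT2A, MAT2B, MTR, MTRR, NNMT, ADK and ADA). The choice was made with earlier results of these data known. All 10 were found among the 26902 genes of the table, and all 10 were among the 13266 that reached the expression level required for testing (1 TPM or more in 3 or more of the 6 libraries). TPM is a unit of transcript abundance that takes the length of the transcript into account and gives every library the same total, so levels of different genes can be set side by side. The cells were HMCB, an established melanoma line whose genotype the labels give as Nras Q61K, shared by both groups. One group (siNC, n = 3) received a control siRNA and the other (siAHCYL1, n = 3) an siRNA against AHCYL1, and RNA was taken after 3 days. The series asks how AHCYL1 promotes the growth of NRAS-mutant melanoma cells. Only 1 cell line was used. The replicates are labelled as biological, but whether they came from separate cultures is not stated. A p-value here therefore sets the group difference against the spread of these samples only, and part of that spread may be technical.

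In the methionine cycle, methionine adenosyltransferase joins methionine to ATP to give S-adenosylmethionine, the methyl donor of nearly all methyltransferases. Each methyl transfer leaves S-adenosylhomocysteine, which inhibits methyltransferases and which AHCY splits into homocysteine and adenosine. Homocysteine is methylated back to methionine by methionine synthase, with a methyl group from folate and a cobalamin (vitamin B12) cofactor, and adenosine is removed by a kinase or a deaminase. AHCYL1, also called IRBIT, and AHCYL2 resemble AHCY in sequence, but AHCYL1 is known as a partner of ion transporters and of the IP3 receptors, through which the endoplasmic reticulum releases calcium, rather than as a hydrolase.

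The coding sequences of the 3 family members were aligned to show how far they resemble each other (GENCODE 29, GRCh38). The coding sequence of AHCYL1 (1590 bases) was identical to that of AHCYL2 (1833 bases) at 77.9% of 1589 aligned bases, and to that of AHCY (1296 bases) at 62.4% of 1260. Between AHCYL1 and AHCYL2 a single run of at least 19 identical bases was found, 21 bases long, in exon 3 of 17 in both transcripts. With AHCY the longest identical run was 14 bases. The run is printed below in capitals, with 30 bases of coding sequence on each side in lower case. It lies at chr1:110011225-110011245 in AHCYL1 and at chr7:129389067-129389087 in AHCYL2, both on the plus strand of GRCh38, and 14 of the 60 flanking bases differ. The flank on the left crosses the junction of exons 2 and 3.

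AHCYL1: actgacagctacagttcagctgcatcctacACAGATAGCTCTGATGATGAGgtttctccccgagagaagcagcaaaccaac
AHCYL2: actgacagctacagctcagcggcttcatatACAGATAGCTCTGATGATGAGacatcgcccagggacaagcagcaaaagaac

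AHCYL1 mRNA (chr1:109984686-110023741, plus strand) was strongly reduced. The control libraries had 150.02, 134.05 and 131.09 TPM, and the siAHCYL1 libraries had 13.45, 11.13 and 10.97 TPM. All 3 knockdown libraries lay far below all 3 controls. The mean fell from 138.4 ± 10.2 to 11.85 ± 1.39 TPM (SD, n = 3), to 8.56% of the control level, with a log2 fold change of -3.44 (95% confidence interval -3.66 to -3.22, limma adjusted p = 5.64e-08). No other tested gene had a lower fold change. The exact permutation test over the 6 libraries gave a two-sided p of 0.1, the smallest that 3 against 3 allows. These are bulk RNA values, in which fewer cells of a type and less RNA per cell cannot be told apart.

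Of the other 9 genes, 4 passed the test (limma on log2(TPM + 1), Benjamini-Hochberg adjusted p under 0.05): NNMT, MTR and MAT2A rose and ADA fell. AHCY, AHCYL2, MAT2B, MTRR and ADK did not pass. Over all 10 genes, 3 rose, against 30.4% of all 13266 genes tested. With AHCYL1, the siRNA target, 2 fell, and without it 1 fell, against 21.2%. A change in either direction was called for 4 of the 9 genes other than the target (5 of 10 with it), against 51.6% of all genes. The share of cycle genes called is thus near that of the whole transcriptome. The 2 groups of libraries did not overlap for 5 of these 9 (6 of 10 with AHCYL1), and for 59.2% of all genes. The median absolute log2 fold change of the 9 genes other than AHCYL1 was 0.22, beside 0.31 over all genes, and the median log2 fold change of the 10 was 0.13, beside 0.06. The 10 genes thus hold a few large changes, NNMT and ADA in particular, among small ones.

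**Figure D1:**
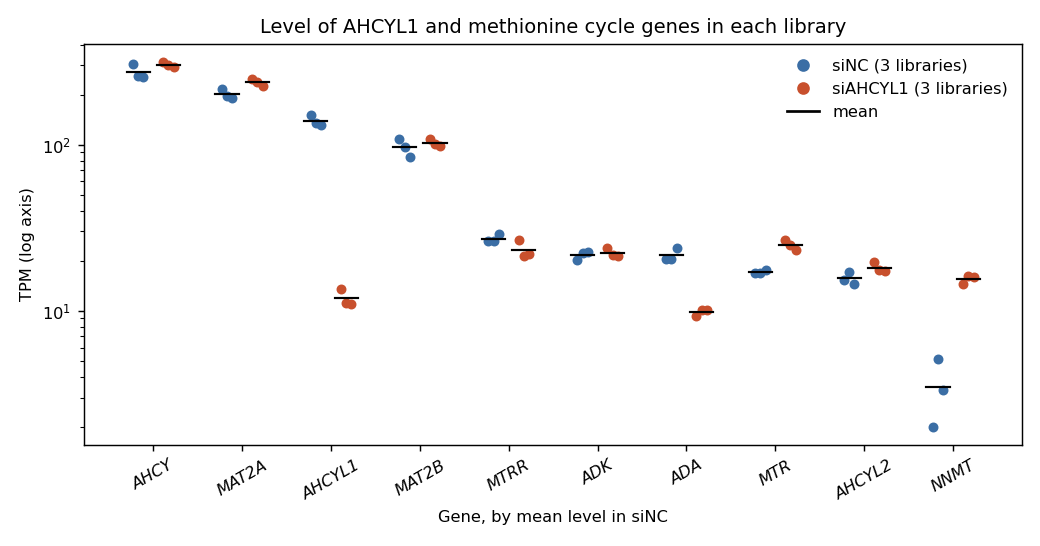
Level of each of the 10 genes in TPM on a log axis, by library, with siNC in blue and siAHCYL1 in red; black bars are means of 3 libraries and the genes are ordered by their mean in siNC. AHCYL1 and ADA are lower and NNMT and MTR higher in every siAHCYL1 library than in any control, while the points of ADK, MAT2B and AHCY overlap between groups.

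AHCY (chr20:34280268-34311802, minus strand), the S-adenosylhomocysteine hydrolase of the cycle, was the most abundant of the 10 in both groups. Its control libraries had 306.91, 259.20 and 255.17 TPM, and the siAHCYL1 libraries 313.51, 301.70 and 295.28 TPM. Control replicate 1 stood within the range of the knockdown libraries, and the other 2 controls below it. The means were 273.8 ± 28.8 and 303.5 ± 9.25 TPM, with a log2 fold change of 0.15 (95% confidence interval -0.02 to 0.33, adjusted p = 0.127). Without control replicate 1 the log2 fold change of AHCY was 0.24 and passed the test (limma adjusted p = 0.0118). It did not pass under median-of-ratios scaling (0.09, adjusted p = 0.309) or quantile normalization (0.11, adjusted p = 0.243). In all, AHCY was called in 3 of 14 other settings.

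AHCYL2 (chr7:129225023-129430211, plus strand), the closest paralog of AHCYL1, had 15.40, 17.11 and 14.54 TPM in controls and 19.67, 17.48 and 17.38 TPM after AHCYL1 siRNA. Every knockdown library was above every control, with 17.11 and 17.38 TPM as the nearest pair. The mean went from 15.68 ± 1.31 to 18.18 ± 1.29 TPM, a log2 fold change of 0.20 that did not pass the test (95% confidence interval -0.02 to 0.43, adjusted p = 0.12). The sequence of the siRNA is not given in the sources used here, so whether it covers the 21 bases printed above was not tested.

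The makeup of the family changed with AHCYL1. In the controls AHCYL1 made up 31.8%, 32.7% and 32.7% of the summed TPM of AHCY, AHCYL1 and AHCYL2, and in the siAHCYL1 libraries 3.88%, 3.37% and 3.39%. The summed level itself was 427.8 ± 38.8 TPM in controls and 333.5 ± 11.8 TPM after knockdown. AHCYL1 had 8.86 ± 0.965 times the TPM of AHCYL2 in controls and 0.651 ± 0.029 times after knockdown, so the order of the pair was exchanged in every library. Neither AHCY nor AHCYL2 was lower in mean TPM after knockdown, so the lower sum comes from AHCYL1.

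Of the subunits of methionine adenosyltransferase, MAT2A rose slightly and MAT2B did not pass the test. MAT2A (chr2:85539165-85545280, plus strand), the catalytic subunit, had 215.81, 196.99 and 192.05 TPM in controls and 247.59, 238.70 and 224.62 TPM after knockdown, with no overlap between groups. It rose 1.18-fold, from 201.6 ± 12.5 to 237.0 ± 11.6 TPM (log2 fold change 0.23, 95% confidence interval 0.08 to 0.39, limma adjusted p = 0.0172). This small change did not pass without control replicate 2 (0.22, adjusted p = 0.069), control replicate 3 (0.20, adjusted p = 0.0603) or siAHCYL1 replicate 2 (0.23, adjusted p = 0.0604), nor without the intensity trend (0.23, adjusted p = 0.051). MAT2A shares 558 exonic bases with GGCX on the other strand, and the libraries were not directional, so reads of the pair cannot be told apart there. GGCX was listed at 10.31 to 14.7 TPM.

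MAT2B (chr5:163503114-163519336, plus strand), the regulatory subunit, had 108.24, 96.36 and 83.79 TPM in controls and 107.54, 101.21 and 98.57 TPM after knockdown, and the groups overlapped. Its log2 fold change was 0.10 (95% confidence interval -0.11 to 0.31, adjusted p = 0.408). The MAT2A to MAT2B ratio within a library was 2.11 ± 0.16 in controls and 2.31 ± 0.0409 after knockdown (exact permutation test, two-sided p = 0.2, 0.267 after Benjamini-Hochberg adjustment over 8 ratios). The groups overlapped, and 3 libraries against 3 cannot give a p below 0.1 in this test.

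Methionine synthase rose and its reductase did not pass the test. MTR (chr1:236795281-236903981, plus strand), the cobalamin-dependent enzyme that methylates homocysteine, had 16.95, 16.93 and 17.54 TPM in controls, the tightest group of the set. After knockdown it had 26.61, 24.74 and 23.16 TPM. Its mean rose 1.45-fold, from 17.14 ± 0.347 to 24.84 ± 1.73 TPM (log2 fold change 0.51, 95% confidence interval 0.31 to 0.71, limma adjusted p = 0.00113). A rise of this size was common in these libraries, where 2435 genes had a higher fold change.

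MTRR (chr5:7851186-7906025, plus strand), which restores the oxidised cobalamin of MTR, had 26.46, 26.13 and 28.83 TPM in controls and 26.65, 21.33 and 21.92 TPM after knockdown. One siAHCYL1 library, replicate 1, was at the control level and the other 2 were below it. The log2 fold change was -0.22 (95% confidence interval -0.45 to 0.01, adjusted p = 0.104). It passed the test without siAHCYL1 replicate 1 (-0.31, limma adjusted p = 0.0155), and also when the TPM were rescaled by median of ratios (-0.28, adjusted p = 0.0267) or by quantiles (-0.30, adjusted p = 0.0189). MTRR shares 100 exonic bases with FASTKD3 and 305 with C5orf49 on the other strand, which were listed at 5.36 to 9.8 and at 0 to 0.31 TPM.

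The MTR to MTRR ratio within a library does not depend on how that library was scaled. It was 0.641, 0.648 and 0.608 in controls and 0.998, 1.16 and 1.06 after knockdown, 1.69-fold higher with no overlap. The exact permutation p was 0.1, the smallest possible (0.16 after adjustment over 8 ratios). In the controls MTRR was thus the more abundant of the pair in every library, and after knockdown their ranges overlapped.

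NNMT (chr11:114257787-114313285, plus strand) moves a methyl group from S-adenosylmethionine to nicotinamide and so uses up the methyl donor without modifying DNA, RNA or protein. It was the least abundant of the 10 in controls, at 2.00, 5.14 and 3.32 TPM, and these libraries differed among themselves with a coefficient of variation of 45.2%. After knockdown it had 14.44, 16.15 and 15.95 TPM, above every control. The mean rose 4.45-fold, from 3.487 ± 1.58 to 15.51 ± 0.935 TPM (log2 fold change 1.94, 95% confidence interval 1.43 to 2.44, limma adjusted p = 0.000106). Among all tested genes, 58 had a higher fold change. Because the fold change is taken on log2(TPM + 1), it understates the change of a gene this low.

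NNMT is also abundant in fibroblasts, and markers of other cell types were therefore read beside it. Of 7 fibroblast markers PDGFRA and FAP were at 0 in every library and COL1A2, COL3A1 and DCN were at or near 0. The sum of the 7 was 15.36 to 17.93 TPM in controls and 26.06 to 32.42 TPM after knockdown, nearly all of it LUM (13.98 ± 1.33 to 28.96 ± 3.38 TPM), while COL1A1 was 2.18 ± 0.47 and 0.493 ± 0.249 TPM. The part of this list in the NNMT result was not tested.

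Of the enzymes that remove adenosine, ADA fell and ADK did not pass the test. ADK (chr10:74151185-74709303, plus strand), the kinase that returns adenosine to AMP, had 20.11, 22.21 and 22.63 TPM in controls and 23.76, 21.64 and 21.22 TPM after knockdown. The ranges overlapped in part, and the log2 fold change was 0.04 (95% confidence interval -0.17 to 0.24, adjusted p = 0.768). ADA (chr20:44619522-44652233, minus strand), the deaminase that turns adenosine into inosine, had 20.47, 20.49 and 23.86 TPM in controls and 9.30, 10.10 and 10.04 TPM after knockdown. The knockdown libraries were close to each other and all far below the controls. ADA fell 2.2-fold, from 21.61 ± 1.95 to 9.813 ± 0.446 TPM, to 45.4% of the control level (log2 fold change -1.06, 95% confidence interval -1.29 to -0.83, limma adjusted p = 3.41e-05). A lower fold change was found for 399 genes.

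In the controls ADK and ADA were at the same level, with ratios of 0.982, 1.08 and 0.948. After knockdown the kinase had 2.55, 2.14 and 2.11 times the TPM of the deaminase. The mean ratio went from 1.0 ± 0.0705 to 2.27 ± 0.247 (exact permutation p = 0.1, the smallest possible, 0.16 after adjustment over 8 ratios). ADA shares 46 exonic bases with PKIG on the other strand (28.65 to 44.89 TPM).

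**Figure D2:**
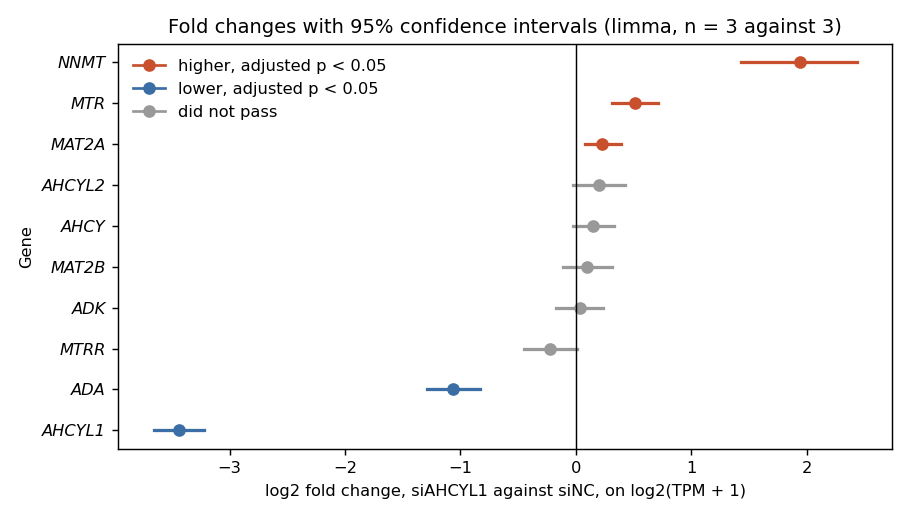
Log2 fold change of each of the 10 genes on log2(TPM + 1), siAHCYL1 against siNC, with 95% confidence intervals from limma; red and blue mark genes with an adjusted p under 0.05. NNMT lies at 1.94, ADA at -1.06 and AHCYL1 at -3.44, and the other 7 lie between -0.22 and 0.51.

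The order of the 10 by level was partly rearranged. In controls it ran from AHCY (273.8 TPM) through MAT2A, AHCYL1, MAT2B, MTRR, ADK, ADA, MTR and AHCYL2 to NNMT (3.487 TPM). The libraries of neighbours overlapped only between ADK and ADA and between MTR and AHCYL2. After knockdown AHCY, MAT2A and MAT2B led, followed by MTR, MTRR and ADK, whose ranges overlapped from one to the next, then AHCYL2, NNMT, AHCYL1 and ADA without overlap. AHCYL1 went from rank 3 to rank 9, ADA from 7 to 10, and MTR from 8 to 4.

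Ratios to AHCY within each library set the other steps against the hydrolase. The NNMT to AHCY ratio was 0.0131 ± 0.00666 in controls and 0.0512 ± 0.00446 after knockdown, 4.29-fold higher without overlap. The AHCYL1 to AHCY ratio was 0.507 ± 0.0155 and then 0.039 ± 0.0034, 13-fold lower. MAT2A to AHCY was 0.703, 0.76 and 0.753 in controls and 0.79, 0.791 and 0.761 after knockdown, a separation without overlap in which the nearest libraries had 0.76 and 0.761. Each of these had the smallest possible exact permutation p of 0.1 (0.16 after adjustment over 8 ratios). The AHCYL2 to AHCY ratio (0.0577 ± 0.00794 and 0.0598 ± 0.00255, exact p = 0.7) and the ADK to AHCY ratio (0.08 ± 0.0126 and 0.0731 ± 0.00231, exact p = 0.4) overlapped between groups. In all, 5 of the 8 ratios did not overlap, beside 59.2% of all genes taken singly. The AHCYL1 to AHCY ratio among them contains the siRNA target itself.

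**Figure D3:**
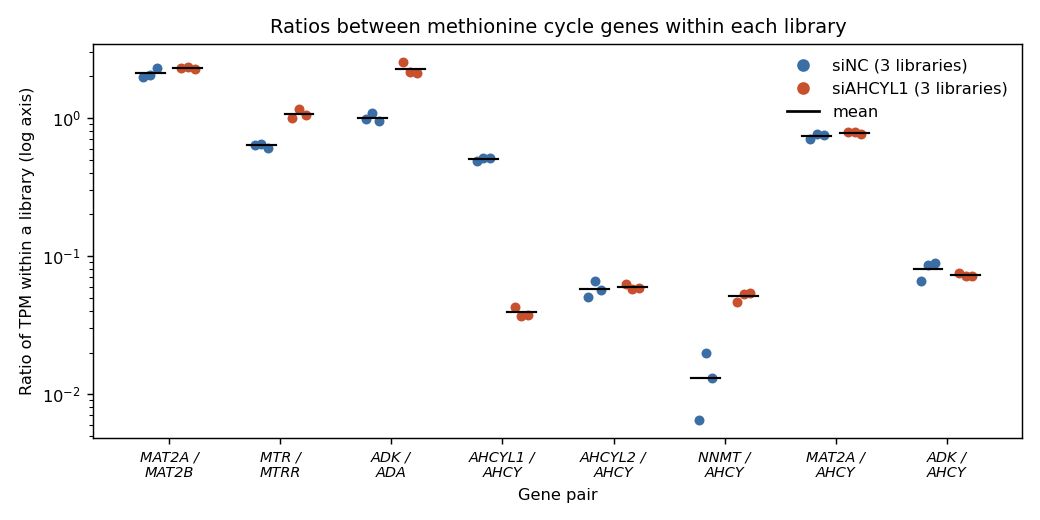
Ratio of TPM of each of 8 gene pairs within a library, on a log axis, siNC in blue and siAHCYL1 in red, with means of 3 libraries as black bars. The ADK to ADA and MTR to MTRR ratios are higher and the AHCYL1 to AHCY ratio lower in all 3 siAHCYL1 libraries, and the AHCYL2 to AHCY ratio lies at the same height in both groups.

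The promoter windows of MAT2A and MTR, which rose, and of ADA, which fell, are shown because these 3 changed, were not the target of the siRNA and had an entry in the RefSeq table (GRCh38.p14). Each window covers 250 bases before to 50 bases after an annotated start, 5′ to 3′ on the strand of the gene. Of the 10 genes, 8 had at least 1 window; MTRR and NNMT had none. Capitals mark every match, on either strand, to 6 motifs: the box CCAAT, the Sp1-type box GGGCGG, the core promoter element TATAAA, the cAMP response element TGACGTCA, the E-box CACGTG and the AP-1 site TGACTCA. The coordinates are chr2:85538918-85539217 (plus strand) for MAT2A, chr1:236795031-236795330 (plus strand) for the first of the MTR windows, and chr20:44651650-44651949 (minus strand) for ADA.

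MAT2A: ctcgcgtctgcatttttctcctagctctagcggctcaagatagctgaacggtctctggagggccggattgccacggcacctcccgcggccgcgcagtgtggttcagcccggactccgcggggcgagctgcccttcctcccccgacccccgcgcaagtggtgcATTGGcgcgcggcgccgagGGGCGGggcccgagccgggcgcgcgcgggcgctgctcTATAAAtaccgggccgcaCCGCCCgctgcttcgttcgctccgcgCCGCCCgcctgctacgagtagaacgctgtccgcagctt
MTR: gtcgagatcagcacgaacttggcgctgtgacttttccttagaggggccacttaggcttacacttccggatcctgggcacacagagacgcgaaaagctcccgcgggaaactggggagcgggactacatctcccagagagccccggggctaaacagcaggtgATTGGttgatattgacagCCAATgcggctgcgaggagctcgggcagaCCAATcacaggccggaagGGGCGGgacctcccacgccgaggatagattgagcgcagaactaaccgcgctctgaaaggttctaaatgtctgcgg
ADA: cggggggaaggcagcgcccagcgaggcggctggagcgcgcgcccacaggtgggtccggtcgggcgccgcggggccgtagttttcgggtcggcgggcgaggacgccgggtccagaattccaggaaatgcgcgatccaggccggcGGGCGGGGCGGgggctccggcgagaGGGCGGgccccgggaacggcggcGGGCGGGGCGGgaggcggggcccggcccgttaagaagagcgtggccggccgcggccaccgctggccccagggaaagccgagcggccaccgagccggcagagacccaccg

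The windows differed in composition. MTR held 3 CCAAT matches and 1 GGGCGG match, with 58.7% GC and 21 CpG dinucleotides. MAT2A held 1 CCAAT, 3 GGGCGG and 1 TATAAA match at 71.0% GC and 43 CpG. ADA held 5 GGGCGG matches, with overlapping pairs counted singly, and none of the other motifs, at 79.3% GC and 47 CpG. Over all 35116 windows of the table the median was 58.7% GC and 14 CpG, and at least 1 match was found in 34.6% for CCAAT, 45.0% for GGGCGG, 11.5% for TATAAA, 1.85% for TGACGTCA, 7.26% for CACGTG and 4.95% for TGACTCA. In the first of its windows AHCYL1 held 1 TGACGTCA match and 1 GGGCGG match. These matches describe the letters of the windows and not binding.

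Among the genes around the cycle, chosen from 8 lists with 95 genes besides the 10, 67 were tested. Of these 18 rose (26.9%) and 19 fell (28.4%), while the other 30 did not pass. Their median log2 fold change was -0.02. The shares for all genes were 30.4% and 21.2%. The genes named from each list are those with the smallest adjusted p at a level of at least 5 TPM, up to 3 in each direction.

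Cobalamin supply was the list nearest to MTR, and 5 of its 8 tested genes rose while none fell (median log2 fold change 0.39). Of all genes tested, 30.4% rose and 21.2% fell. The list also holds MUT, which uses cobalamin and does not supply it to MTR, so the 5 are not a count of supply to MTR. MUT, methylmalonyl-CoA mutase, the other human enzyme that needs cobalamin, rose from 27.66 ± 1.07 to 50.7 ± 4.52 TPM (log2 fold change 0.85, limma adjusted p = 4.72e-05). LMBRD1, which takes part in the exit of cobalamin from lysosomes, rose from 68.73 ± 11.5 to 110.3 ± 10.6 TPM (0.68, adjusted p = 0.00109). MMACHC, which processes incoming cobalamin, rose from 3.803 ± 0.401 to 6.077 ± 1.16 TPM (0.55, adjusted p = 0.0154), and did not pass without siAHCYL1 replicate 2 (0.44, adjusted p = 0.0688) or with replicate 1 of both groups left out (0.47, adjusted p = 0.072). The other 2 calls of this list, ABCD4 and MMAA, held in 5 of 14 and 4 of 13 other settings, and CD320 and MMAB, which did not pass, were called lower in 3 of 14 and 5 of 13; these 4 are named after their values were seen.

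Beyond ADA, the adenosine list had 17 tested genes (median log2 fold change -0.18). Of all genes tested, 30.4% rose and 21.2% fell, and of these 17, 4 rose and 8 fell. Of these calls, NT5C3B and SLC29A1, both lower, held in 9 and 8 of 14 other settings, and ADAL, higher, in 8 of 13; these 3 are named after their values were seen. PNP, which splits the inosine that ADA makes, fell from 37.28 ± 2.64 to 21.01 ± 0.927 TPM (log2 fold change -0.80, limma adjusted p = 6.63e-05). The transporter SLC29A4 fell from 81.47 ± 3.37 to 42.03 ± 1.58 TPM (-0.94, adjusted p = 8.16e-06), and SLC29A3, a lysosomal nucleoside transporter, from 7.867 ± 0.542 to 3.663 ± 1.35 TPM (-0.97, adjusted p = 0.00428). NT5C, a nucleotidase, rose from 59.72 ± 7.83 to 90.7 ± 14 TPM (0.59, adjusted p = 0.00351).

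NT5C2, a cytosolic nucleotidase, rose from 23.66 ± 2.43 to 29.5 ± 0.376 TPM (log2 fold change 0.31, limma adjusted p = 0.0183). It did not pass without control replicate 2 (0.31, adjusted p = 0.0562), control replicate 3 (0.24, adjusted p = 0.0663) or siAHCYL1 replicate 2 (0.32, adjusted p = 0.0525). ADORA2B, an adenosine receptor, rose from 11.36 ± 1.08 to 14.29 ± 1.26 TPM (0.31, adjusted p = 0.044). It lost the call in 7 of 14 alternative settings: without the filter (adjusted p = 0.0722), under both rescalings (0.117 and 0.156), and without control replicate 1 (0.132), control replicate 2 (0.0992), siAHCYL1 replicate 2 (0.138) or siAHCYL1 replicate 3 (0.126).

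Around NNMT, the list of nicotinamide and NAD synthesis had 10 tested genes, 4 higher and 2 lower (median log2 fold change 0.24). Among all genes tested the shares were 30.4% higher and 21.2% lower. NAMPT, which turns the substrate of NNMT, nicotinamide, into nicotinamide mononucleotide, fell from 442.5 ± 15.2 to 258.8 ± 28.7 TPM (log2 fold change -0.78, limma adjusted p = 5.55e-05). In contrast NMNAT1, the nuclear enzyme of the next step, rose from 6.77 ± 1.37 to 19.04 ± 0.929 TPM (1.38, adjusted p = 4.88e-05). The other enzymes of that step, NMNAT2 and NMNAT3, are named after their values were seen. NMNAT2 fell from 3.963 ± 0.134 to 1.72 ± 0.532 TPM (-0.88, adjusted p = 0.00218). NMNAT3 did not pass (2.45 ± 0.886 and 2.673 ± 0.306 TPM, adjusted p = 0.65), so the step as a whole did not move in 1 direction. NMRK1, which phosphorylates nicotinamide riboside, rose from 10.71 ± 2.43 to 22.62 ± 1.14 TPM (1.03, adjusted p = 0.000301), and NADSYN1, the last enzyme of the deamidated route to NAD, from 18.14 ± 0.612 to 43.73 ± 5.9 TPM (1.22, adjusted p = 2.04e-05). NNMT and NAMPT, which share nicotinamide as substrate, therefore changed in opposite directions.

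Of 9 tested small-molecule methyltransferases, NNMT rose and 3 fell (median log2 fold change -0.38), beside 30.4% of all genes higher and 21.2% lower. TPMT, thiopurine methyltransferase, fell from 84.41 ± 2.99 to 54.53 ± 2.43 TPM (log2 fold change -0.62, limma adjusted p = 7.51e-05). CARNMT1, which methylates carnosine, fell from 10.92 ± 0.56 to 5.997 ± 0.757 TPM (-0.77, adjusted p = 0.000614), and GAMT, the last enzyme of creatine synthesis, from 139.4 ± 16.4 to 106.2 ± 5.02 TPM (-0.38, adjusted p = 0.00547).

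Homocysteine can leave the cycle through transsulfuration, where 2 of 7 tested genes rose and 1 fell (median log2 fold change 0.15). The shares of all genes tested were 30.4% and 21.2%. The entry enzyme CBS (96.19 ± 1.01 and 90.4 ± 3.19 TPM, limma adjusted p = 0.248) and the enzyme of the next step, CTH (130.5 ± 7.74 and 144.8 ± 4.71 TPM, adjusted p = 0.0834), did not pass. Both are named here for their place in the pathway, after their values were seen. The sulfurtransferase MPST rose from 92.46 ± 11.3 to 117.7 ± 8.65 TPM (0.35, limma adjusted p = 0.0123). It did not pass after quantile normalization (0.24, adjusted p = 0.0524) or without replicate 1 of both groups (0.25, adjusted p = 0.0643). TST, another sulfurtransferase, fell from 42.56 ± 2.94 to 33.74 ± 1.61 TPM (-0.33, adjusted p = 0.00859).

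In methionine salvage, which recovers methionine from the by-product of polyamine synthesis, 1 of 6 genes rose and 1 fell (median log2 fold change 0.04). Beside these counts, 30.4% of all genes tested rose and 21.2% fell. ADI1, a late enzyme of the route, rose from 102.3 ± 10 to 136.1 ± 11.7 TPM (0.41, limma adjusted p = 0.0047). ENOPH1, which acts just before it, fell from 76.96 ± 7.16 to 62.6 ± 2.84 TPM (-0.29, adjusted p = 0.0152), a call lost without siAHCYL1 replicate 2 (-0.27, adjusted p = 0.06).

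Among carriers that can bring methionine into the cell, 1 of 8 tested rose and 4 fell (median log2 fold change -0.26). For all genes tested the shares were 30.4% and 21.2%. The fall of SLC38A2, named after its values were seen, held in only 7 of 14 other settings. SLC7A5, the most abundant of the list and also named after its values were seen, did not pass. It had 1263.0 ± 68.9 TPM in controls and 1190.0 ± 19.5 TPM after knockdown (-0.08, limma adjusted p = 0.253), and passed in 0 of 14 other settings. SLC3A2, the heavy chain shared by several amino acid exchangers, fell from 521.4 ± 41.8 to 422.3 ± 9.63 TPM (-0.30, limma adjusted p = 0.0049). SLC38A1 fell from 92.06 ± 7.64 to 66.23 ± 7.9 TPM (-0.47, adjusted p = 0.00301) and SLC7A6 from 23.45 ± 1.94 to 18.2 ± 0.417 TPM (-0.35, adjusted p = 0.0104). SLC43A2 rose from 4.247 ± 0.315 to 6.137 ± 0.361 TPM (0.44, adjusted p = 0.0137), and did not pass without control replicate 2 (0.40, adjusted p = 0.0519) or siAHCYL1 replicate 2 (0.42, adjusted p = 0.0539).

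**Figure D4:**
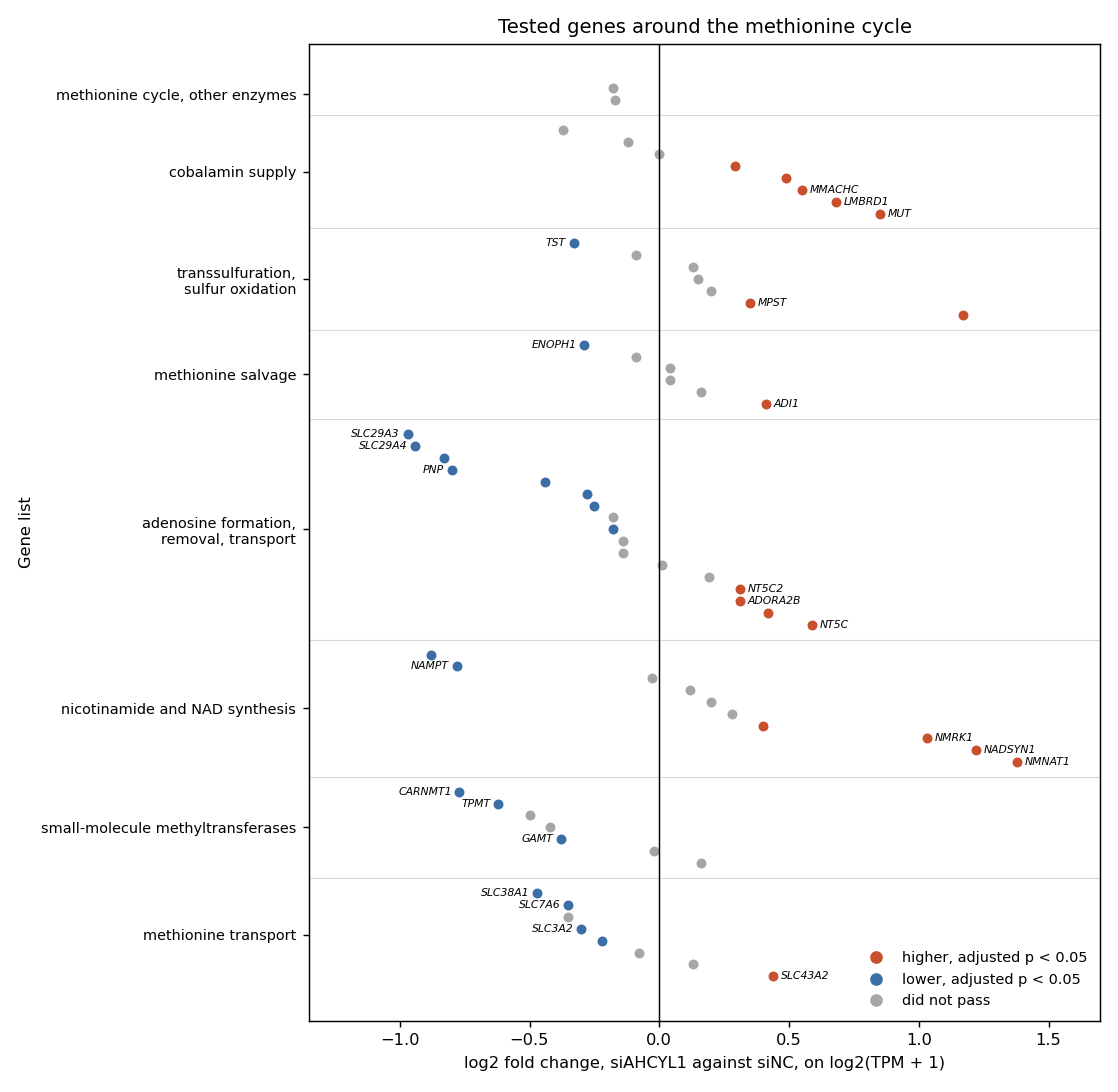
Log2 fold change of the tested and reported genes of 8 lists around the methionine cycle, siAHCYL1 against siNC, on log2(TPM + 1); red and blue mark genes with an adjusted p under 0.05, and labels mark the genes named by rule, at a level of at least 5 TPM. The 10 genes described above are left out. The cobalamin list has 5 red and no blue points, and the adenosine list 4 red and 8 blue. Of all genes tested, 30.4% were higher and 21.2% lower.

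The genes whose level followed AHCYL1 most closely over the 6 libraries were outside the cycle. By Pearson's r of log2(TPM + 1), over 11213 genes with a mean of at least 5 TPM in a group, they were TMEM64 (0.99971), NR4A1 (0.99967), ACKR3 (0.99966), NELL2 (0.99948) and ETV5 (0.99938). Such values describe 6 points that fall into 2 groups and share the knockdown, and 282 genes reached 0.99. The sizes of their changes differed widely. TMEM64 fell from 45.49 ± 2.97 to 6.337 ± 0.629 TPM (log2 fold change -2.67) and NR4A1 from 150.9 ± 1.49 to 106.5 ± 1.87 TPM (-0.50). Within the set, ADA followed AHCYL1 with an r of 0.98, MTR and NNMT ran against it at -0.96 each, and ADK was at -0.23.

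Facts of the whole series bear on these values as follows. The table keeps no sequencing depth, and 13035 to 13189 genes reached 1 TPM in each library. Of all genes tested 4030 were higher and 2814 lower after AHCYL1 siRNA; after quantile normalization these became 3471 and 3743, so the split of directions depends on the scaling. Of 10 melanocytic markers 7 were tested, of which 4 rose and 1 fell, beside 30.4% and 21.2% of all genes. TYR and GPR143 were at 0 in every library. MITF (10.99 ± 1.46 and 9.72 ± 1.42 TPM, limma adjusted p = 0.342) and SOX10 (adjusted p = 0.548) did not pass. DCT fell from 11.41 ± 0.584 to 0.337 ± 0.249 TPM (limma adjusted p = 1.14e-06), while S100B rose from 10.72 ± 0.58 to 28.98 ± 3.11 TPM (adjusted p = 9.74e-06). RAB27A, TYRP1 and PMEL rose as well, PMEL in only 4 of 13 other settings. TYRP1 (1.587 ± 0.484 to 3.76 ± 1.18 TPM) and PMEL (0.877 ± 0.604 to 1.827 ± 0.171 TPM) were low in both groups. The summed level of the 10, 1077 to 1102 TPM in controls and 1061 to 1106 TPM after knockdown, is nearly all SOX10 and does not show these changes. Immune and blood markers summed to 53.49 to 72.34 TPM in controls and 110.5 to 133.0 TPM after knockdown, mostly LCP1 (42.57 ± 3.38 and 105.4 ± 8.56 TPM), with CD3E, CD3D, MS4A1 and HBB at 0. PTPRC of this list rose from 3.447 ± 0.238 to 8.553 ± 1.9 TPM (adjusted p = 0.000394), and HBA1 fell from 18.04 ± 7.33 to 6.347 ± 2.69 TPM (adjusted p = 0.00749). Keratinocyte markers summed to 12.17 to 23.61 and 16.5 to 22.63 TPM, mostly KRT10 (15.92 ± 5.09 and 18.78 ± 3.41 TPM), with KRT5, KRT1, DSG3 and IVL at 0. Endothelial markers summed to 9.13 to 11.15 and 6.46 to 7.25 TPM, with PECAM1, CDH5, VWF and CLDN5 at or near 0. This sum is mostly KDR, which fell from 9.6 ± 1.22 to 6.743 ± 0.458 TPM (limma adjusted p = 0.0133, lower in 12 of 14 other settings). The part of these lists in the results was not tested.

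**Figure D5:**
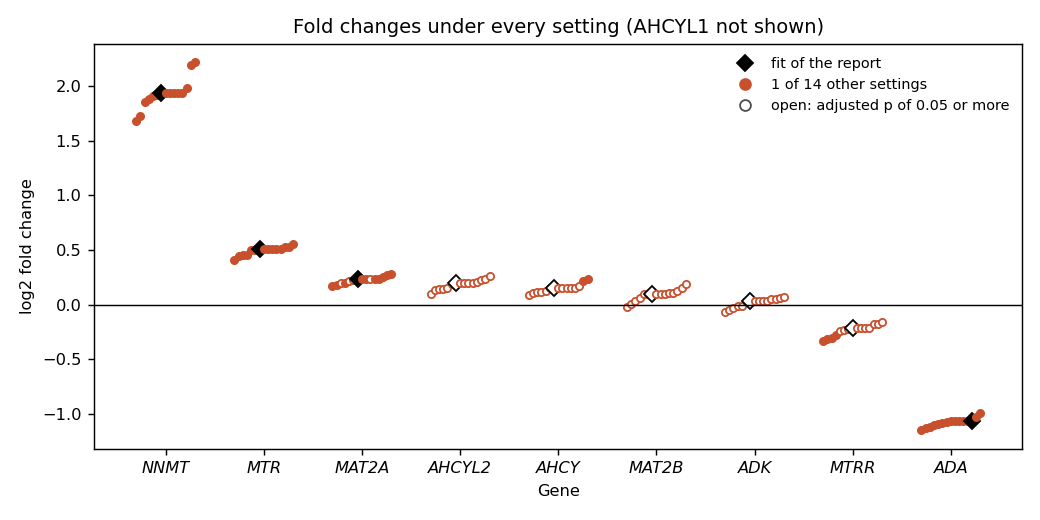
Log2 fold change of the 9 genes other than AHCYL1 in the analysis reported here (black diamond) and under 14 other settings (red circles, sorted by value); open symbols have an adjusted p of 0.05 or more. NNMT, MTR and ADA are filled under all settings, MAT2A under 10 of the 14, MTRR under 4 and AHCY under 3.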

How the data were processed

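The authors deposited 1 table of TPM per gene and library. STAR, RSEM and GRCh38 were used, per the submitters' processing notes; their versions and the annotation were not given in the sources used here, and the libraries were non-directional, per the labels' protocols. TPM keeps no depth, so no counting error could be computed. In R 4.3.3, log2(TPM + 1) of genes reaching 1 TPM in 3 or more of 6 libraries was compared between groups with limma 3.58.1 (intensity trend, no block, two-sided, Benjamini-Hochberg over 13266 genes, threshold 0.05). Ratios were compared with exact permutation tests (scipy 1.17.1). The code was tested on simulated data. The 10 genes and all lists were chosen with earlier results of these data known. Named are the 10 genes; from each list the called genes of smallest adjusted p with a mean of at least 5 TPM in a group, up to 3 per direction; and the 5 genes most like AHCYL1. A few list genes are counted but not reported here. Alternatives were a pseudocount of 0.1 TPM, no filter or one at 5 TPM, quantile normalization, median-of-ratios scaling, replicate number as a block, robust moderation without trend, and libraries left out. Coordinates are from GENCODE 29 and promoters from RefSeq. ADA2 and SQOR were matched by older symbols.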

Additional observations from a re-analysis of the deposited data

How the results depend on the processing

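Over 14 alternative settings the calls of AHCYL1, NNMT, MTR and ADA held in each. MAT2A was not called without an intensity trend (0.23, limma adjusted p = 0.051), nor when control replicate 2, control replicate 3 or siAHCYL1 replicate 2 was left out (range over single libraries left out 0.20 to 0.28). AHCY was called without control replicate 1 (0.24; range 0.10 to 0.24) and with replicate 1 left out of both groups (0.21, adjusted p = 0.00689). MTRR was called under median-of-ratios scaling (-0.28), quantile normalization (-0.30), without siAHCYL1 replicate 1 (-0.31; range -0.31 to -0.16) and with replicate 1 left out of both groups (-0.33, adjusted p = 0.0155). The sign of MAT2B turned under quantile normalization (-0.02), and that of ADK under median-of-ratios scaling (-0.03), quantile normalization (-0.05), without replicate 1 of both groups (-0.06), and without either replicate 1 (-0.01; range -0.01 to 0.07). The log2 ratio of AHCYL2 to AHCY turned without control replicate 1 (-0.04; range -0.04 to 0.16) and without replicate 1 of both groups (-0.07). In each case the cause was not tested.

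With the replicate number as a replicate block, AHCY was called (0.15, adjusted p = 0.0295) and no other of the 10 calls changed; 7919 genes passed in place of 6844. Deviations of same-numbered libraries correlated at 0.233, 0.00092 and 0.154, and those of differently numbered libraries at -0.256 to 0.153. These values do not settle whether equal numbers mark pairs. The numbers were not taken as pairs in the main fit.

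With 3 libraries a group and TPM in place of counts, depth cannot be weighed, and the confidence intervals of AHCY, AHCYL2, MAT2B, MTRR and ADK leave room for changes of the size seen in MAT2A.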

Other observations

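Several enzymes of the cycle in liver were at or near 0 in these cells; they are named after their values were seen. BHMT and BHMT2, which methylate homocysteine with betaine, were listed at 0 in every library. MAT1A, the liver form of methionine adenosyltransferase, was at 0.117 ± 0.107 TPM in controls and 0.447 ± 0.229 TPM after AHCYL1 siRNA (SD, n = 3), and GNMT, a methyltransferase that buffers S-adenosylmethionine, at 0.23 ± 0.398 and 0.25 ± 0.278 TPM. CDO1, which opens the route from cysteine to taurine, was listed at 0 throughout. The adenosine receptors ADORA1, ADORA2A and ADORA3 and the transporters SLC28A1 and SLC28A2 were listed at 0 as well. AOX1, which oxidises the methylated nicotinamide that NNMT makes, was at 0.23 ± 0.104 and 0.173 ± 0.0379 TPM. DPP4, a surface anchor of ADA, was at 0.69 ± 0.125 TPM in controls and 0.0633 ± 0.0603 TPM after knockdown, below the level required for testing.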
